A study of Homo sapiens with 12 samples.

Results

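The genes by which a tumour cell shows peptides to T cells and displays ligands to inhibitory or activating receptors of T and NK cells were examined in the lung squamous cell carcinoma line H520. The set holds 34 genes, chosen by name from the 58302 gene identifiers of the count table, and falls into 7 classes: HLA class I and B2M (5 genes), class I peptide loading (5), transactivators (3), class II presentation (8), T-cell checkpoint ligands (5), NKG2D ligands (5), and PVR, NECTIN2 and CD47 (3). Of the 34, 18 lie on chromosome 6. RNA-seq of 12 libraries was analysed, in 4 groups of 3 by their labels. All cells are labelled as H520, and in all groups the medium was replaced 5 h after seeding. The first group, called OV-L1-FGGY with DMSO or vehicle-treated OV-L1-FGGY, stably expressed the chimeric transcript L1-FGGY from a lentivirus and received 0.2% DMSO. The second group had the same construct and 10 μM ML355, an inhibitor of the lipoxygenase 12-LOX, and the third group is labelled as the same construct with 450 μM NVR, an inhibitor of reverse transcriptase. The last group is labelled as a control with 0.2% DMSO and was read as the stable empty-vector line. The columns of the count table for the last 2 groups name only NVR or DMSO and no construct. Each construct is carried by 1 stably infected population of an established line, and the length of the treatment is not stated in the sources used here.

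Class I molecules, each a heavy chain paired with β2-microglobulin (B2M), carry peptides from proteins made inside the cell to CD8 T cells. The peptides are pumped into the endoplasmic reticulum by the TAP transporter, trimmed by ERAP aminopeptidases and loaded with the help of tapasin (TAPBP), while class II molecules carry peptides from endosomes to CD4 T cells and are normally restricted to professional antigen presenting cells. NLRC5 is known as the transactivator of class I genes and CIITA as that of class II genes, and RFX5 is a DNA-binding subunit used by both. Checkpoint ligands such as PD-L1 (CD274) restrain T cells, the stress ligands MICA, MICB and ULBP engage the activating receptor NKG2D of NK cells, and CD47 signals to phagocytes not to engulf the cell.

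The labels were examined before the results. The paper describes L1-FGGY as running from an intronic L1 into an exon of FGGY, and reports that it lowers FGGY expression. Counts per gene do not separate the chimeric transcript from FGGY itself. The construct should raise the count of FGGY (ENSG00000172456, chromosome 1, 59296638 to 59810647, GRCh38) only if its reads are assigned to that gene, which was not tested. FGGY had 4782, 5206 and 6196 counts in OV-L1-FGGY with DMSO and 7346, 6290 and 5080 counts with ML355. It had 91, 87 and 78 counts in the control, and 82, 103 and 88 counts in the third group. If reads of the construct are counted to FGGY, the third group went against the construct in its label. These libraries are called the NVR-labelled libraries throughout. They were set against each DMSO group in turn, and each direction drawn from them carries this limit. The squamous markers also divided the libraries, some in one direction and some in the other. SOX2 was at 0 counts in all 6 libraries of OV-L1-FGGY with DMSO and ML355, against a mean of 16.0 CPM (TMM-scaled counts per 1e6 counts) in the control and 10.9 CPM in the NVR-labelled libraries. KRT17 was at 944 and 4236 CPM in OV-L1-FGGY with DMSO and with ML355 but at 0.201 CPM in the control and 0.0990 CPM in the NVR-labelled libraries. The squamous markers KRT6A and DSG3 were at 0 counts in every library, and KRT5 had at most 3 counts. In the control, OV-L1-FGGY with DMSO, with ML355 and the NVR-labelled libraries, TRIM29 was at 4.09, 183, 348 and 1.69 CPM. In this order PERP was at 111, 1010, 333 and 156 CPM, and TP63 went the other way, at 3.03, 0.709, 0.218 and 2.53 CPM. All 13 squamous markers summed to 304 to 380, 2245 to 2317, 3893 to 5692 and 306 to 407 CPM. The 5 epithelial markers summed to 3940 to 5447 CPM in the control, 861 to 886 in OV-L1-FGGY with DMSO, 436 to 561 with ML355 and 1997 to 3308 in the NVR-labelled libraries. Of these, KRT19 was at 0 counts in OV-L1-FGGY with DMSO and 134 CPM in the control, while EPCAM went the other way, at 8.87 CPM and 1.57 CPM. These differences run with the construct as measured by FGGY, so that the construct and whatever else sets the lines apart cannot be told apart in the first comparison below. Total counts per library ranged from 16242082 to 27004768, and the floor of 3 counts lay at 0.111 to 0.172 CPM. Markers of leukocytes, 17 genes in all, summed to 12.6 to 14.2 CPM in the control, 3.73 to 4.70 in OV-L1-FGGY with DMSO, 3.35 to 4.58 with ML355 and 24.7 to 26.7 in the NVR-labelled libraries. MS4A1 was at 0 throughout and CD3D and CD3E had at most 3 counts. The 6 markers of antigen presenting cells summed to 15.3 to 16.2, 1.43 to 1.95, 1.44 to 2.31 and 13.6 to 14.8 CPM in the same order, with CD1C, CLEC9A and CLEC10A at 0. The 8 fibroblast and endothelial markers summed to 20.8 to 26.2, 121 to 142, 48.0 to 60.1 and 20.3 to 23.0 CPM, with DCN at 60.9 CPM in OV-L1-FGGY with DMSO and 0 in the control and the NVR-labelled libraries. The part of these markers in the results was not tested, and in RNA of whole cultures fewer cells of a type and less RNA per cell cannot be told apart.

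Of the 34 genes, 30 passed edgeR's filter on low counts and were tested, and CD74, HLA-DRA, HLA-DPA1 and HLA-DPB1 did not pass. A gene was called at a Benjamini-Hochberg adjusted p under 0.01 in edgeR's quasi-likelihood test over all 17849 genes tested. In OV-L1-FGGY against the control, both in DMSO, 19 of the 30 were higher and 4 were lower, where 32.5% of all genes tested were higher and 36.2% lower. Their median log2 fold change was 1.05, beside -0.11 over all genes tested. With ML355 against DMSO in OV-L1-FGGY, 10 were higher and 4 lower, beside 21.3% and 23.5% of all genes tested, and the median was 0.33 beside 0.00. In the NVR-labelled libraries against vehicle-treated OV-L1-FGGY, 5 were higher and 18 lower, beside 38.2% and 35.4%, with a median of -0.73 beside 0.08. In the same libraries against the control, 9 were higher and 6 lower, beside 14.5% and 15.3%, with a median of 0.26 beside 0.00. The first 3 comparisons share the libraries of vehicle-treated OV-L1-FGGY, the first and the last share the control, and the last 2 share the NVR-labelled libraries, so that their values are given side by side and not as independent results. The labels do not say whether the 3 libraries of a group came from separate cultures, so that p-values measure the spread between these libraries, which may be technical.

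**Figure D1:**
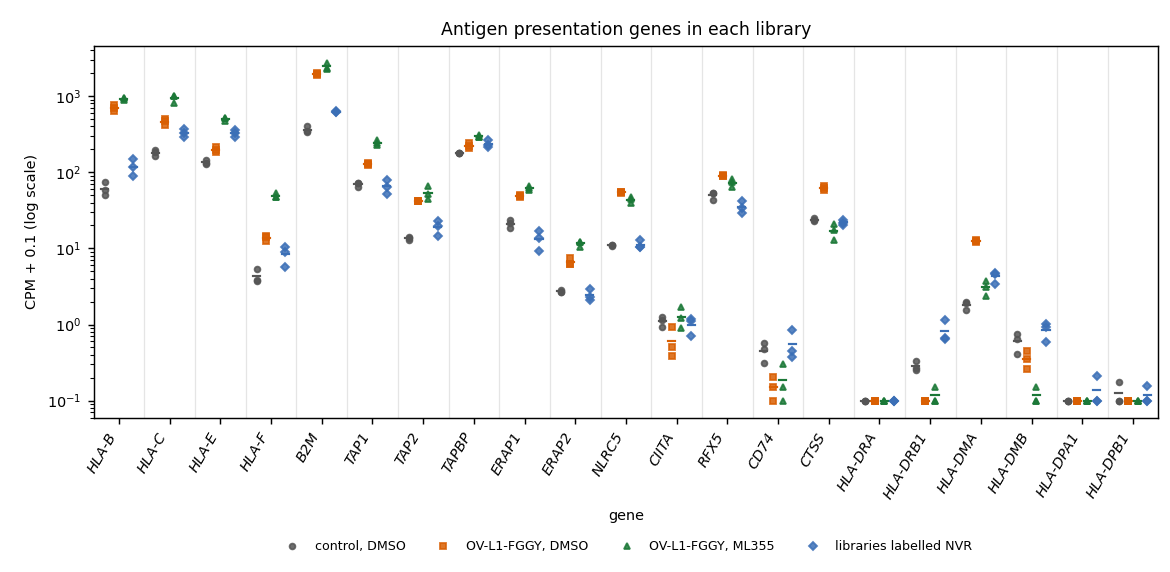
Level of each antigen presentation gene in every library, as CPM + 0.1 on a log scale (y axis) by gene (x axis); points are the 3 libraries of a group and short bars the group means. The 3 HLA-B points of OV-L1-FGGY with DMSO (644 to 762 CPM) and with ML355 (890 to 949 CPM) lie above all control points (49.9 to 74.5 CPM), while most class II genes lie near the bottom, HLA-DRA at 0 counts in all libraries.

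The 5 genes of class I heavy chains and B2M were all higher in OV-L1-FGGY than in the control, and all higher in the NVR-labelled libraries than in the control. With ML355, HLA-C, HLA-E and HLA-F were higher again. The upstream sequences of 3 heavy chains, B2M and the peptide transporter gene TAP1 are shown because a short run of letters, on one strand or the other, recurs at nearly the same distance from the start of the first 4. The 250 bases before the RefSeq transcript start (GRCh38.p14) are printed 5′ to 3′ on the strand of the gene. Capitals mark matches on either strand to CTGATTGG, here called the Y box core (a pattern bound by NF-Y). They also mark matches on either strand to GAAANNGAA, here called the ISRE core (read by interferon regulatory factors), where overlapping matches form a longer run.
HLA-B (chr6:31357180-31357429, minus strand): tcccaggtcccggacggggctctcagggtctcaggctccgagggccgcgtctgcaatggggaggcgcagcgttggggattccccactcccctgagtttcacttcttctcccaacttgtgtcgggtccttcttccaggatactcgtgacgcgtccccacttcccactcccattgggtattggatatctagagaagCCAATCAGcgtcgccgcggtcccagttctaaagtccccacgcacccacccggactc
HLA-C (chr6:31272093-31272342, minus strand): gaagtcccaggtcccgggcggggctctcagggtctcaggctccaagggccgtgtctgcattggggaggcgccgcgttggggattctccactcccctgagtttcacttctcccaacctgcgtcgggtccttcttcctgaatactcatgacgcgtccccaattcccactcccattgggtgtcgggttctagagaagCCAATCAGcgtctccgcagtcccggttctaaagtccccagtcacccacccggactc
HLA-F (chr6:29723184-29723433, plus strand): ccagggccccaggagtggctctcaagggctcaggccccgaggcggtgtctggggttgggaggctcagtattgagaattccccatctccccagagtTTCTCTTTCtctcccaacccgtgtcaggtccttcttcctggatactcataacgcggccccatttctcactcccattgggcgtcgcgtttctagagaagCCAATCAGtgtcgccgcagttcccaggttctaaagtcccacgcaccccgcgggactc
B2M (chr15:44711267-44711516, plus strand): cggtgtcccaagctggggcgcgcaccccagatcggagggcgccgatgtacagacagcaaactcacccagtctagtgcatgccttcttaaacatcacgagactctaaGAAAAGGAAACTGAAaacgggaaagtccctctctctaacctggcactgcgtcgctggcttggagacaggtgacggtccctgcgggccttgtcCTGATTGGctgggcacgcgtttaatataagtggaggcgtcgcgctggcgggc
TAP1 (chr6:32853705-32853954, minus strand): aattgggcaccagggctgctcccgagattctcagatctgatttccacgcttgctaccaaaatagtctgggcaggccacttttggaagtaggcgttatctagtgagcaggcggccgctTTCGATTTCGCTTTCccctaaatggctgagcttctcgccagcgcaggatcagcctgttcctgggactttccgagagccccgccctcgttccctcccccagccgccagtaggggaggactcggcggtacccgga
The Y box core began at position -56 of HLA-B and of HLA-C, -57 of HLA-F and -52 of B2M, counted from the transcript start, on the printed strand for B2M and on the opposite strand for the HLA genes. In these HLA genes the shorter run ATTGG also stands unmarked on the printed strand, upstream of the marked match. Which of these runs acts as the Y box of each gene was not tested, and the marked matches need not be the same element in B2M and the HLA genes. The ISRE core began at -155 of HLA-F, at -144 and -138 of B2M and at -133 and -127 of TAP1. The pattern leaves out near matches: HLA-B and HLA-C hold the similar run TTTCACTTCT, which stands unmarked. The lack of a marked ISRE core in HLA-B and HLA-C therefore does not show that they lack such an element. RefSeq windows were matched for 28 of the 34 genes, in 35 windows because some genes have several starts, and not for HLA-E, NLRC5, CIITA, CTSS, HLA-DRA and PDCD1LG2. Of the 35 windows, 7 held the Y box core, beside 3.81% of 35116 promoters, and the other windows with it belonged to HLA-DRB1, HLA-DMA and RFX5. The ISRE core stood in 12 of the 35, beside 6.88% of all promoters. The kappa-B motif stood in 11 of 35, beside 9.96%, at -177 and -176 of HLA-B, -172 of HLA-C, -125 of B2M and -72 of TAP1. The GAS motif (TTCNNNGAA) stood in 2 of 35 (5.71%), beside 6.57% of all promoters, in a TAP1 window not printed here and in that of CD274. The windows of the 34 genes were taken from the main chromosomes only, and the shares over all promoters were not limited in this way. A match of letters is a description and was not tested as a binding site.

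HLA-B (ENSG00000234745, chromosome 6, 31353872 to 31367067), a classical heavy chain, was at 74.5, 57.5 and 49.9 CPM in the control, 695, 762 and 644 in OV-L1-FGGY with DMSO, 949, 890 and 930 with ML355, and 118, 89.6 and 149 in the NVR-labelled libraries. No group overlapped another, and the control was lowest. It was 11.6-fold higher in OV-L1-FGGY than in the control (log2 fold change 3.53, SE 0.19, edgeR adjusted p = 5.83e-11). With ML355 the log2 fold change was 0.40 (SE 0.17, adjusted p = 0.0537), which did not pass. The NVR-labelled libraries were lower than vehicle-treated OV-L1-FGGY (log2 fold change -2.56, adjusted p = 1.38e-09) and higher than the control (0.97, adjusted p = 0.000329). B2M (ENSG00000166710, chromosome 15, 44711358 to 44718851), the light chain of every class I molecule, lies outside the MHC region. It was at 399, 352 and 333 CPM in the control, 1982, 1916 and 1976 in OV-L1-FGGY with DMSO, 2748, 2285 and 2310 with ML355, and 645, 613 and 620 in the NVR-labelled libraries. The groups stood in the same order as for HLA-B, without overlap. B2M was 5.42-fold higher in OV-L1-FGGY than in the control (log2 fold change 2.44, SE 0.13, adjusted p = 4.15e-11), and its value with ML355 was 0.32 (adjusted p = 0.0293). Against vehicle-treated OV-L1-FGGY the NVR-labelled libraries were lower by edgeR (log2 fold change -1.65, adjusted p = 2.85e-09), and against the control they were higher (0.79, adjusted p = 8.09e-05).

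HLA-C, the other classical heavy chain of the set, was at 198, 182 and 162 CPM in the control, 422, 497 and 469 in OV-L1-FGGY with DMSO, 1005, 803 and 1015 with ML355, and 326, 293 and 372 in the NVR-labelled libraries. All 4 groups stood apart. Its log2 fold change was 1.36 for OV-L1-FGGY against the control (SE 0.13, edgeR adjusted p = 1.26e-07) and 1.02 for ML355 against DMSO (SE 0.13, adjusted p = 8.04e-06). HLA-E, which binds leader peptides of other class I chains and is seen by the NKG2A receptor of NK cells, was at 146, 131 and 127 CPM in the control, 194, 212 and 187 in OV-L1-FGGY with DMSO, 509, 468 and 509 with ML355, and 331, 293 and 359 in the NVR-labelled libraries. The NVR-labelled libraries lay above vehicle-treated OV-L1-FGGY (log2 fold change 0.73, adjusted p = 1.36e-05). Its values were 0.55 for OV-L1-FGGY against the control (adjusted p = 0.000242), 1.33 with ML355 (adjusted p = 7.14e-08) and 1.28 for the NVR-labelled libraries against the control (adjusted p = 3.37e-07). HLA-F, a non-classical chain, was at 5.30, 3.68 and 3.76 CPM in the control, 12.4, 14.4 and 14.1 in OV-L1-FGGY with DMSO, 46.7, 46.7 and 53.1 with ML355, and 8.81, 5.67 and 10.3 in the NVR-labelled libraries. The ML355 libraries were highest, and no groups overlapped. It was 3.21-fold higher in OV-L1-FGGY than in the control (adjusted p = 1.04e-06) and 3.59-fold higher with ML355 than with DMSO (adjusted p = 4.92e-07). The NVR-labelled libraries were lower than vehicle-treated OV-L1-FGGY for HLA-C (-0.49, adjusted p = 0.00306) and HLA-F (-0.73, adjusted p = 0.00224). For HLA-C this call was lost without any 1 of replicates 2 and 3 of OV-L1-FGGY with DMSO or replicates 1 and 2 of the NVR-labelled libraries, with adjusted p up to 0.0165. Against the control they were higher for HLA-C (0.87, adjusted p = 9.18e-05) and HLA-F (0.95, adjusted p = 0.0014), the latter with an adjusted p of 0.01 without control replicate 2. Reads of near-identical heavy chains may have been shared or discarded, because the handling of multi-mapped reads is not stated, so that levels of single HLA genes are uncertain.

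Among the peptide loading genes, 4 of 5 were higher in OV-L1-FGGY than in the control, 3 were higher with ML355, and 4 were lower in the NVR-labelled libraries than in vehicle-treated OV-L1-FGGY. TAP1, a subunit of the peptide transporter, was at 63.4, 71.5 and 72.0 CPM in the control, 130, 129 and 124 in OV-L1-FGGY with DMSO, 231, 238 and 262 with ML355, and 63.0, 80.0 and 51.8 in the NVR-labelled libraries. The NVR-labelled libraries overlapped the control and no other group. Its log2 fold change was 0.89 for OV-L1-FGGY against the control (SE 0.13, edgeR adjusted p = 1.42e-05), 0.93 with ML355 (adjusted p = 1.99e-05) and -0.98 for the NVR-labelled libraries against vehicle-treated OV-L1-FGGY (adjusted p = 4.58e-06). TAP2, the other subunit, was at 13.8, 12.9 and 13.4 CPM in the control, 42.2, 42.0 and 41.4 in OV-L1-FGGY with DMSO, 52.0, 65.2 and 44.4 with ML355, and 19.9, 14.6 and 22.7 in the NVR-labelled libraries. It was 3.13-fold higher in OV-L1-FGGY than in the control (log2 fold change 1.64, adjusted p = 1.04e-07), and its value with ML355 was 0.36 (adjusted p = 0.0536). The NVR-labelled libraries were lower than vehicle-treated OV-L1-FGGY (-1.14, adjusted p = 5.27e-06). TAP1 shares its start region with PSMB9 on the opposite strand, and without stated strand counting the reads of the 2 genes may not be fully separated.

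ERAP1, a peptide-trimming aminopeptidase, was at 18.2, 21.2 and 23.7 CPM in the control, 47.0, 49.6 and 49.3 in OV-L1-FGGY with DMSO, 65.3, 61.3 and 58.1 with ML355, and 13.6, 16.6 and 9.27 in the NVR-labelled libraries, which were lowest. It was higher in OV-L1-FGGY than in the control (log2 fold change 1.21, edgeR adjusted p = 3.95e-06) and lower in the NVR-labelled libraries than in either DMSO group (-1.88 with adjusted p = 2.51e-08 against OV-L1-FGGY, and -0.67 with adjusted p = 0.00391 against the control). The last call was lost without replicate 1 or 3 of the NVR-labelled libraries or replicate 2 or 3 of the control, with adjusted p up to 0.0217. Its annotated span overlaps CAST on the opposite strand. ERAP2, its partner, was at 2.61, 2.78 and 2.57 CPM in the control, 6.2, 7.31 and 6.15 in OV-L1-FGGY with DMSO, 10.4, 12.1 and 12.0 with ML355, and 2.85, 2.19 and 2.03 in the NVR-labelled libraries. It rose with the construct (1.30, adjusted p = 6.36e-06) and with ML355 (0.81, adjusted p = 0.000683), and the NVR-labelled libraries overlapped the control. TAPBP, which bridges TAP and the empty heavy chain, ranged from 179 to 181 CPM in the control, 206 to 243 in OV-L1-FGGY with DMSO, 286 to 307 with ML355, and 216 to 267 in the NVR-labelled libraries. Its log2 fold change was 0.31 with the construct (adjusted p = 0.0145), 0.41 with ML355 (adjusted p = 0.00416) and 0.39 for the NVR-labelled libraries against the control (adjusted p = 0.00755). The call with ML355 was lost without replicate 1 or 2 of OV-L1-FGGY with DMSO or replicate 1 of ML355 (adjusted p up to 0.0323). That against the control was lost without replicate 1 or 3 of the NVR-labelled libraries or any 1 control library (adjusted p up to 0.0322), and neither call held when counts were scaled by library size alone (adjusted p = 0.0334 and 0.0934).

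NLRC5 and RFX5 were higher in OV-L1-FGGY than in the control, and CIITA had few counts. NLRC5 (ENSG00000140853, chromosome 16, 56989485 to 57083531) was at 10.6, 11.1 and 11.01 CPM in the control, 55.1, 53.6 and 55.6 in OV-L1-FGGY with DMSO, 38.9, 44.4 and 47.7 with ML355, and 10.3, 12.7 and 10.4 in the NVR-labelled libraries. The control and the NVR-labelled libraries overlapped, and both lay below the other libraries. NLRC5 was 5.02-fold higher in OV-L1-FGGY than in the control (log2 fold change 2.33, SE 0.12, edgeR adjusted p = 5.01e-11), had a value of -0.33 with ML355 (adjusted p = 0.022), and was lower in the NVR-labelled libraries than in vehicle-treated OV-L1-FGGY (-2.29, adjusted p = 5.24e-11). RFX5 was at 43.4, 53.3 and 53.9 CPM in the control, 91.7, 88.1 and 88.7 in OV-L1-FGGY with DMSO, 74.5, 80.4 and 64.6 with ML355, and 33.3, 41.5 and 29.2 in the NVR-labelled libraries. It was higher with the construct (0.83, adjusted p = 3.19e-05), had a value of -0.29 with ML355 (adjusted p = 0.0746), and was lower in the NVR-labelled libraries than in vehicle-treated OV-L1-FGGY (-1.36, adjusted p = 1.15e-07). Against the control its value was -0.53 (adjusted p = 0.00491), a call lost without replicate 1 or 3 of the NVR-labelled libraries or replicate 2 or 3 of the control, with adjusted p up to 0.0278. CIITA had 20, 30 and 27 counts in the control, 5, 16 and 8 in OV-L1-FGGY with DMSO, 16, 31 and 21 with ML355, and 12, 27 and 20 in the NVR-labelled libraries. All 4 groups overlapped, and no comparison of CIITA passed.

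Class II genes were scarce. HLA-DRA, the α chain of HLA-DR, had 0 counts in all 12 libraries, which allows up to 3 counts per library at this depth. HLA-DPA1 had 2 counts in all, in replicate 3 of the NVR-labelled libraries, and HLA-DPB1 had 2 counts in control replicate 2 and 1 count in replicate 3 of the NVR-labelled libraries. CD74, the chaperone of class II, had 5, 12 and 10 counts in the control, 0, 2 and 1 in OV-L1-FGGY with DMSO, 1, 4 and 0 with ML355, and 7, 20 and 5 in the NVR-labelled libraries. Over the summed counts of each group it was 6.72-fold higher in the control than in vehicle-treated OV-L1-FGGY (95% counting interval 2.07 to 34.6), an interval of counting error only. HLA-DRB1, the β chain of HLA-DR, had 4, 6 and 4 counts in the control, 0 in each library of OV-L1-FGGY with DMSO, 0, 0 and 1 with ML355, and 11, 15 and 19 in the NVR-labelled libraries. Against a floor of 3 counts summed over OV-L1-FGGY with DMSO, it was at least 3.48-fold higher in the control (edgeR adjusted p = 0.00364) and at least 12.9-fold higher in the NVR-labelled libraries (adjusted p = 3.89e-05). The call against the control was lost without any 1 library of OV-L1-FGGY with DMSO or without control replicate 2, with adjusted p up to 0.0121. HLA-DRB genes are near-identical, and with HLA-DRA at 0 the source of these few reads was not tested.

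The remaining class II genes act in the endosome. HLA-DMA, a chain of the HLA-DM peptide editor, was at 1.85, 1.84 and 1.46 CPM in the control, 12.7, 12.3 and 12.1 in OV-L1-FGGY with DMSO, 3.06, 2.27 and 3.68 with ML355, and 4.70, 3.29 and 4.55 in the NVR-labelled libraries. The libraries of OV-L1-FGGY with DMSO lay above all others. HLA-DMA was 7.20-fold higher in OV-L1-FGGY than in the control (log2 fold change 2.85, SE 0.22, edgeR adjusted p = 4.95e-09) and 4.12-fold lower with ML355 (-2.04, SE 0.21, adjusted p = 5.77e-07). In the NVR-labelled libraries it was lower than in vehicle-treated OV-L1-FGGY (-1.57, adjusted p = 2.08e-06) and higher than in the control (1.28, adjusted p = 0.000278). Its annotated span overlaps BRD2 on the opposite strand. HLA-DMB, the other chain of HLA-DM, had 13, 8 and 17 counts in the control, 6, 3 and 5 in OV-L1-FGGY with DMSO, 0, 1 and 0 with ML355, and 18, 13 and 15 in the NVR-labelled libraries. Its log2 fold change with the construct was -0.998 (adjusted p = 0.104), which did not pass. Over summed counts it was 14.6-fold lower with ML355 than with DMSO (95% counting interval 2.22 to 618; edgeR adjusted p = 0.00674). This call was lost without replicate 1 or 3 of either group, with adjusted p up to 0.0286. Without ML355 replicate 2, which held its only count with ML355, the fitted log2 fold change went from -3.48 to -5.46, a value that depends on the prior count. CTSS, the protease cathepsin S that removes the CD74 chain, was at 24.7, 23.6 and 22.7 CPM in the control, 66.7, 61.6 and 59.0 in OV-L1-FGGY with DMSO, 20.6, 17.2 and 12.9 with ML355, and 21.7, 23.8 and 20.03 in the NVR-labelled libraries. Only the libraries of OV-L1-FGGY with DMSO stood above 25 CPM. CTSS rose with the construct (1.40, adjusted p = 1.74e-07) and fell with ML355 (-1.88, adjusted p = 3.16e-08), and the NVR-labelled libraries were lower than vehicle-treated OV-L1-FGGY (-1.51, adjusted p = 5.9e-08) and overlapped the control.

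**Figure D2:**
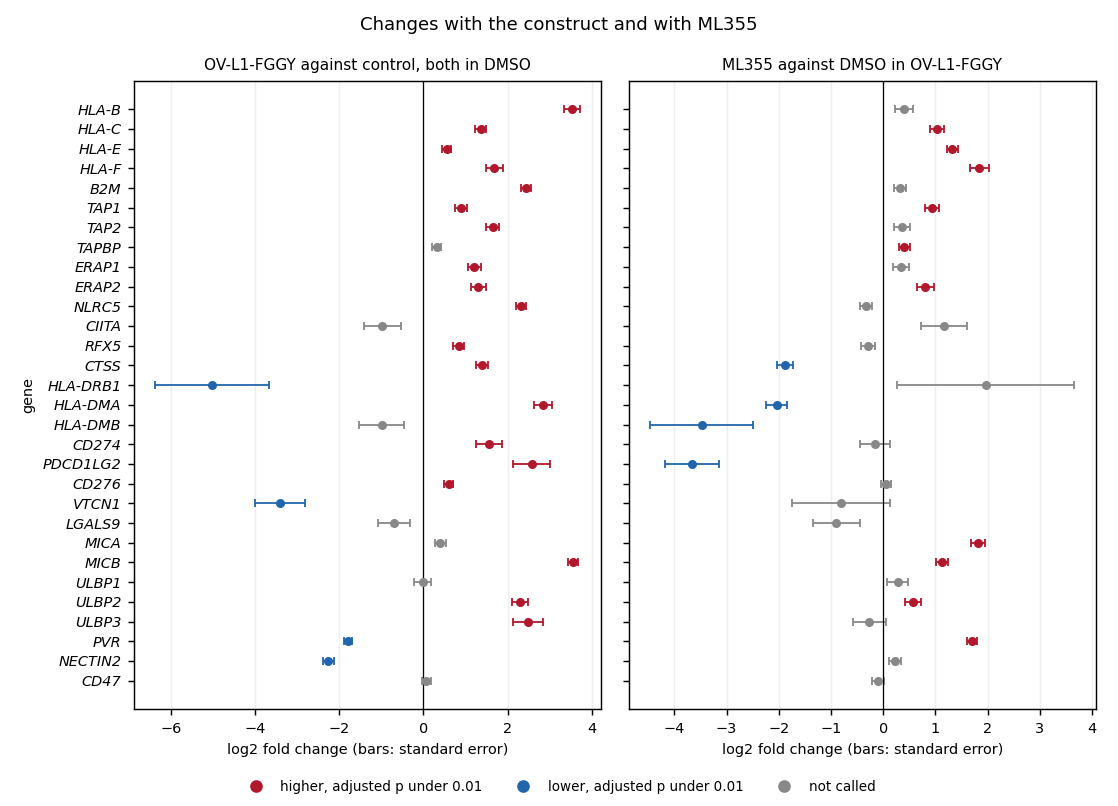
Log2 fold change (x axis) with its standard error (bars) of each of the 30 genes tested (y axis), for OV-L1-FGGY against the control in DMSO (left) and ML355 against DMSO in OV-L1-FGGY (right); red is higher, blue lower and grey not called at an adjusted p under 0.01. HLA-B (3.53) and MICB (3.56) lie farthest right on the left panel, and PDCD1LG2 (-3.66) farthest left on the right panel; the fitted values of HLA-DRB1, at 0 counts in OV-L1-FGGY with DMSO, and of HLA-DMB with ML355, at 1 count, depend on the prior count.

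The ligands of T-cell checkpoint receptors did not move as a block. CD276 (B7-H3) had the highest level per kilobase of them, CD274 (PD-L1), PDCD1LG2 (PD-L2) and CD276 were higher with the construct, and VTCN1 (B7-H4) was lower. CD274 was at 1.18, 2.07 and 1.88 CPM in the control, 6.48, 4.63 and 4.13 in OV-L1-FGGY with DMSO, 4.19, 6.39 and 3.05 with ML355, and 2.70, 3.78 and 2.69 in the NVR-labelled libraries. The control lay below all other libraries, and the 2 groups of OV-L1-FGGY overlapped. CD274 was 2.95-fold higher in OV-L1-FGGY than in the control (log2 fold change 1.56, SE 0.30, edgeR adjusted p = 0.000207). With ML355 its value was -0.16 (SE 0.29, adjusted p = 0.668), and neither comparison of the NVR-labelled libraries passed (-0.72 with adjusted p = 0.0331 against vehicle-treated OV-L1-FGGY, and 0.84 with adjusted p = 0.037 against the control). PDCD1LG2 (PD-L2, ENSG00000197646, chromosome 9, 5510531 to 5571282), the neighbour of CD274, had 5, 10 and 13 counts in the control, 34, 31 and 61 in OV-L1-FGGY with DMSO, 3, 3 and 4 with ML355, and 0, 3 and 1 in the NVR-labelled libraries. Its level was highest in OV-L1-FGGY with DMSO, at 2.22 ± 0.758 CPM (SD, n = 3), and near the floor of 3 counts with ML355 and in the NVR-labelled libraries. It was 5.94-fold higher in OV-L1-FGGY than in the control (2.57, adjusted p = 6.29e-05) and 12.6-fold lower with ML355 than with DMSO (-3.66, adjusted p = 1.82e-05). Over summed counts the NVR-labelled libraries were 36.5-fold lower than vehicle-treated OV-L1-FGGY (95% counting interval 13.9 to 136) and 6.05-fold lower than the control (2.12 to 23.8; adjusted p = 0.00953). The call against the control was lost without replicate 1 or 3 of the NVR-labelled libraries or replicate 2 or 3 of the control (adjusted p up to 0.0442) and with the replicate number as a block (adjusted p = 0.0119). Without replicate 2 of the NVR-labelled libraries the fitted log2 fold changes of PDCD1LG2 went from -5.07 to -6.12 against vehicle-treated OV-L1-FGGY and from -2.50 to -3.54 against the control.

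CD276 was at 73.7, 72.2 and 76.7 CPM in the control, 112, 102 and 122 in OV-L1-FGGY with DMSO, 118, 111 and 120 with ML355, and 85.2, 90.1 and 91.6 in the NVR-labelled libraries. It was 1.51-fold higher in OV-L1-FGGY than in the control (log2 fold change 0.59, SE 0.10, edgeR adjusted p = 4.08e-05) and had a value of 0.05 with ML355 (adjusted p = 0.674). The NVR-labelled libraries were lower than vehicle-treated OV-L1-FGGY (-0.33, adjusted p = 0.00538), a call lost without replicate 1 or 3 of OV-L1-FGGY with DMSO or replicate 1 of the NVR-labelled libraries (adjusted p up to 0.034). VTCN1 had 29, 28 and 47 counts in the control, 1, 1 and 5 in OV-L1-FGGY with DMSO, 0, 2 and 2 with ML355, and 8, 5 and 6 in the NVR-labelled libraries. The control was the only group at 1 CPM or more. VTCN1 was lower in OV-L1-FGGY than in the control (-3.41, SE 0.60, adjusted p = 7.18e-05) and lower in the NVR-labelled libraries than in the control (-2.19, adjusted p = 0.00255), the latter lost without replicate 2 of the NVR-labelled libraries or control replicate 3 (adjusted p up to 0.0205). The first value was -4.50 without replicate 3 of OV-L1-FGGY with DMSO, which held 5 of its 7 counts there. LGALS9 (galectin-9), a ligand of TIM-3, was at 1.56, 1.21 and 1.57 CPM in the control, 1.03, 0.789 and 0.857 in OV-L1-FGGY with DMSO, 0.887, 0.206 and 0.315 with ML355, and 5.65, 4.33 and 7.46 in the NVR-labelled libraries. These last libraries stood above every other. LGALS9 was higher there than in vehicle-treated OV-L1-FGGY (2.69, adjusted p = 3.25e-06) and than in the control (1.996, adjusted p = 0.000168), and was called in neither of the other comparisons. It has near-identical copies, between which its reads may be split.

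**Figure D3:**
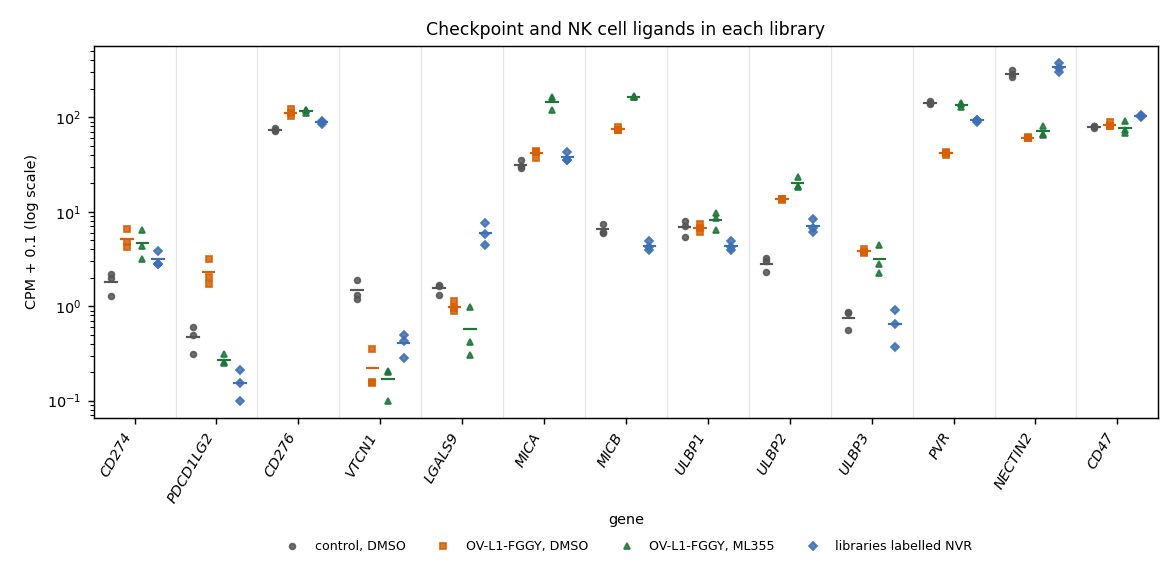
Level of each ligand gene in every library, as CPM + 0.1 on a log scale (y axis) by gene (x axis); points are the 3 libraries of a group and short bars the group means. MICB lies at 73.8 to 78.6 CPM in OV-L1-FGGY with DMSO and 164 to 167 CPM with ML355 but at 3.84 to 7.37 CPM in the other libraries, and PVR and NECTIN2 lie higher in the control than in vehicle-treated OV-L1-FGGY.

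Among the NKG2D ligands, MICB, ULBP2 and ULBP3 were higher in OV-L1-FGGY than in the control, and MICA, MICB and ULBP2 were higher with ML355. MICB (ENSG00000204516, chromosome 6, 31494881 to 31511124) was at 5.80, 6.06 and 7.37 CPM in the control, 73.8, 78.6 and 74.2 in OV-L1-FGGY with DMSO, 164, 167 and 164 with ML355, and 4.10, 4.85 and 3.84 in the NVR-labelled libraries. No group overlapped another. It was 11.8-fold higher in OV-L1-FGGY than in the control (log2 fold change 3.56, SE 0.12, edgeR adjusted p = 4.91e-13), 2.19-fold higher with ML355 than with DMSO (1.13, SE 0.11, adjusted p = 3.32e-07) and 17.6-fold lower in the NVR-labelled libraries than in vehicle-treated OV-L1-FGGY (-4.13, SE 0.13, adjusted p = 1.58e-13). Against the control the NVR-labelled libraries were lower (-0.58, adjusted p = 0.00223), a call lost without their replicate 1 or 3 or control replicate 3 (adjusted p up to 0.0178) and in limma voom (adjusted p = 0.011). MICA, its close relative, was at 34.8, 29.3 and 30.5 CPM in the control, 37.3, 43.3 and 44.3 in OV-L1-FGGY with DMSO, 155, 120 and 166 with ML355, and 35.2, 35.2 and 42.4 in the NVR-labelled libraries. Only the ML355 libraries stood far from the rest. MICA was 3.52-fold higher with ML355 than with DMSO (1.82, SE 0.14, adjusted p = 2.26e-08), and its value with the construct was 0.40 (adjusted p = 0.0129). Reads of MICA and MICB may in part map to each other.

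ULBP2 was at 2.90, 2.19 and 3.11 CPM in the control, 13.3, 13.6 and 13.4 in OV-L1-FGGY with DMSO, 23.2, 18.7 and 18.0 with ML355, and 6.55, 5.96 and 8.23 in the NVR-labelled libraries. All 4 groups stood apart. ULBP2 was 4.91-fold higher in OV-L1-FGGY than in the control (log2 fold change 2.30, edgeR adjusted p = 7.56e-09) and higher in the NVR-labelled libraries than in the control (1.33, adjusted p = 3.38e-05). Its rise with ML355 (0.57, adjusted p = 0.00659) was lost without any 1 library of OV-L1-FGGY with DMSO or without replicate 1 of ML355 (adjusted p up to 0.04). ULBP3 was at 0.463, 0.743 and 0.767 CPM in the control, 3.96, 3.68 and 3.53 in OV-L1-FGGY with DMSO, 2.17, 4.38 and 2.73 with ML355, and 0.550, 0.815 and 0.274 in the NVR-labelled libraries. It was 5.59-fold higher in OV-L1-FGGY than in the control (2.48, adjusted p = 8.39e-06) and lower in the NVR-labelled libraries than in vehicle-treated OV-L1-FGGY (-2.70, adjusted p = 4.39e-06), with a value of -0.27 for ML355 (adjusted p = 0.485). ULBP1 ranged from 5.30 to 7.98 CPM in the control, 5.996 to 7.36 in OV-L1-FGGY with DMSO, 6.31 to 9.63 with ML355 and 3.84 to 4.81 in the NVR-labelled libraries, and its value with the construct was -0.02 (SE 0.20, adjusted p = 0.941). The NVR-labelled libraries were lower than vehicle-treated OV-L1-FGGY (-0.65, adjusted p = 0.00907), a call lost without any 1 library of OV-L1-FGGY with DMSO or without replicate 1 or 3 of the NVR-labelled libraries (adjusted p up to 0.0365).

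PVR and NECTIN2, the ligands that TIGIT and DNAM-1 share, were lower in OV-L1-FGGY than in the control. PVR (CD155, ENSG00000073008, chromosome 19, 44643798 to 44666162) was at 138, 142 and 149 CPM in the control, 39.5, 41.7 and 43.3 in OV-L1-FGGY with DMSO, 137, 127 and 141 with ML355, and 93.1, 89.7 and 94.7 in the NVR-labelled libraries. The ML355 libraries reached the range of the control. PVR was 3.45-fold lower in OV-L1-FGGY than in the control (log2 fold change -1.79, SE 0.10, edgeR adjusted p = 7.73e-11) and 3.25-fold higher with ML355 than with DMSO (1.70, SE 0.10, adjusted p = 1.11e-09). The NVR-labelled libraries lay above vehicle-treated OV-L1-FGGY (1.16, adjusted p = 1.05e-08) and below the control (-0.63, adjusted p = 6.85e-05). NECTIN2 (CD112) was at 314, 288 and 267 CPM in the control, 61.2, 60.1 and 59.8 in OV-L1-FGGY with DMSO, 67.1, 64.3 and 80.8 with ML355, and 332, 301 and 379 in the NVR-labelled libraries. Here the ML355 libraries stayed near OV-L1-FGGY with DMSO, and the control and the NVR-labelled libraries overlapped. NECTIN2 was 4.80-fold lower in OV-L1-FGGY than in the control (-2.26, SE 0.12, adjusted p = 8.32e-11), with a value of 0.23 for ML355 (adjusted p = 0.112), and 5.59-fold higher in the NVR-labelled libraries than in vehicle-treated OV-L1-FGGY (2.48, adjusted p = 2.49e-11). CD47 was at 79.4 ± 2.497 CPM (SD, n = 3) in the control, 83.3 ± 5.03 in OV-L1-FGGY with DMSO, 77.8 ± 12.2 with ML355 and 103 ± 1.69 in the NVR-labelled libraries. No comparison of CD47 passed in the main fit. Its values were 0.07 with the construct (SE 0.11, edgeR adjusted p = 0.58) and -0.10 with ML355 (SE 0.11, adjusted p = 0.47). For the NVR-labelled libraries they were 0.30 against vehicle-treated OV-L1-FGGY and 0.37 against the control (adjusted p = 0.0215 and 0.0138). These last 2 depended on the processing: both passed in DESeq2 (adjusted p = 0.0016 and 0.00184) and in edgeR with DESeq2 size factors (adjusted p = 0.00543 and 0.0084).

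**Figure D4:**
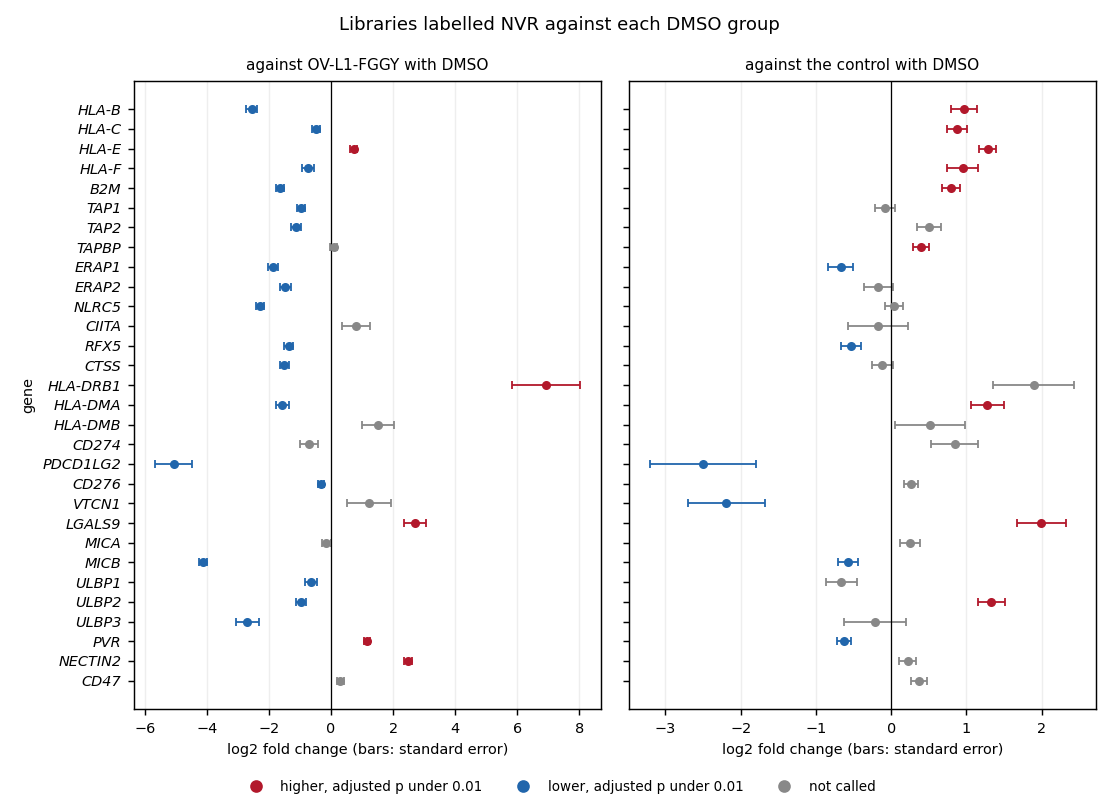
Log2 fold change (x axis) with its standard error (bars) of each of the 30 genes tested (y axis) in the NVR-labelled libraries, against vehicle-treated OV-L1-FGGY (left) and against the control with DMSO (right); red is higher, blue lower and grey not called. On the left 18 genes are blue and 5 red, on the right 6 are blue and 9 red, and the fitted value of HLA-DRB1 on the left (0 counts in OV-L1-FGGY with DMSO) depends on the prior count.

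The order of levels among the genes was compared per kilobase of annotated exon. B2M ranked highest of the 34 in every group, at 116 CPM per kilobase in the control, 627 in OV-L1-FGGY with DMSO, 784 with ML355 and 201 in the NVR-labelled libraries. NECTIN2 came next in the control (77.5 CPM per kilobase), above HLA-C (72.1), whereas HLA-C (184) and HLA-B (152) came next in OV-L1-FGGY with DMSO and NECTIN2 fell to rank 10 (16.1). MICB stood at rank 15 in the control (2.29 CPM per kilobase), rank 7 in OV-L1-FGGY with DMSO (26.98), rank 5 with ML355 (59.0) and rank 19 in the NVR-labelled libraries (1.52).

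Whether the 2 inhibitor labels moved the genes alike was tested as a difference of log2 fold changes, that of the NVR-labelled libraries against the control minus that of ML355 against vehicle-treated OV-L1-FGGY. These changes share no library. Of the 30 genes, 10 passed, beside 34.1% of all genes tested. HLA-DMA (difference 3.32), HLA-DMB (3.996), CTSS (1.77) and LGALS9 (2.90) were higher on the side of the NVR-labelled libraries, whereas PVR (-2.33), MICB (-1.71), MICA (-1.56), TAP1 (-1.02), ERAP1 (-1.01) and ERAP2 (-0.98) were higher on the side of ML355. The calls of HLA-DMB and ERAP2 were lost when any 1 of 8 (HLA-DMB) or 9 (ERAP2) of the 12 libraries was left out, with adjusted p up to 0.0237 and 0.0192. The difference of HLA-DMB was 5.97 without ML355 replicate 2, and that of LGALS9 was 3.74 without ML355 replicate 1. The 5 genes of class I heavy chains and B2M had values from -0.89 to 0.57 and none passed, which does not show that they moved alike. With each label against its own baseline, 5 genes were higher in both comparisons (HLA-C, HLA-E, HLA-F, TAPBP and ULBP2), 1 was lower in both (PDCD1LG2) and 3 moved in opposite directions (PVR, MICB and HLA-DMA). The share of all genes tested with such joint calls was not computed, so that these counts only describe the set. For HLA-F, TAPBP, ULBP2, PDCD1LG2 and MICB, at least 1 of the calls behind them was lost when 1 library was left out.

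**Figure D5:**
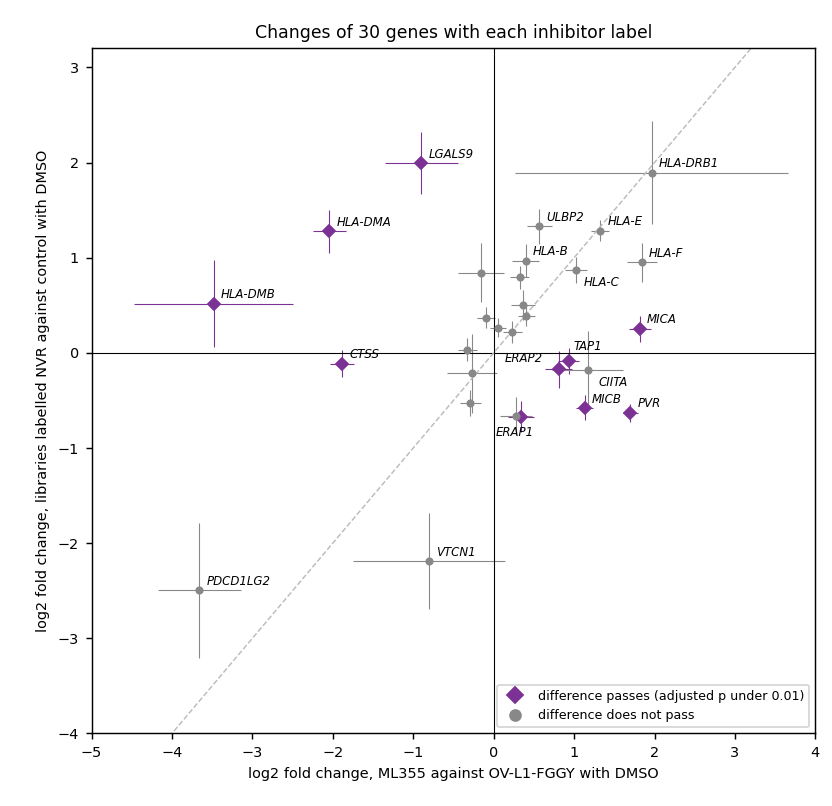
Log2 fold change with ML355 against vehicle-treated OV-L1-FGGY (x axis) and of the NVR-labelled libraries against the control with DMSO (y axis) for the 30 genes tested; bars are standard errors, the dashed line marks equal changes and purple diamonds mark the 10 genes whose difference passed at an adjusted p under 0.01. PVR lies at 1.70 and -0.63, HLA-DMA at -2.04 and 1.28, and HLA-E close to the line at 1.33 and 1.28.

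Genes that work with these 34 were read from lists of the same pathways, and no list was tested as a set. Of all genes tested, 32.5% were higher and 36.2% lower with the construct, and 21.3% higher and 23.5% lower with ML355. Of 13 class I partners, 7 were higher and 4 lower in OV-L1-FGGY than in the control, and 4 were higher and 2 lower with ML355. CANX, the chaperone calnexin, was at 609 CPM in the control and 1484 CPM in OV-L1-FGGY with DMSO (log2 fold change 1.29, edgeR adjusted p = 3.22e-07). PSMB9, a catalytic subunit of the immunoproteasome, was at 26.2 to 35.5 CPM in OV-L1-FGGY with DMSO and 78.4 to 92.8 CPM with ML355 (1.53, adjusted p = 1.1e-06). PSME2, a subunit of the PA28 activator, was lower with the construct (-1.10, adjusted p = 2.75e-06) and higher with ML355 (0.91, adjusted p = 4.93e-05), unlike CANX. PSME3, of the same family, was lower in both (-0.95 and -0.86, adjusted p = 4.31e-07 and 4.34e-06). Of 15 class II partners 11 were tested, and 5 were higher and 4 lower with the construct, 2 higher and 3 lower with ML355. CTSH, the protease cathepsin H, was at 36.2 CPM in the control and 7.18 CPM in vehicle-treated OV-L1-FGGY (-2.33, adjusted p = 1.09e-09), and RFXAP, a partner of RFX5, was at 4.74 and 11.7 CPM (1.30, adjusted p = 7.33e-07).

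Of 18 genes of the interferon-γ axis and the transcription factors of MHC genes, 5 were higher and 8 lower with the construct. The shares over all genes tested were 32.5% and 36.2%. With ML355, 14 were higher and 1 lower, beside 21.3% and 23.5% of all genes tested. IRF1, the interferon regulatory factor that acts on class I promoters, was at 75.3, 57.8 and 56.7 CPM in the control, 22.5, 21.2 and 19.9 in OV-L1-FGGY with DMSO, 134, 121 and 156 with ML355, and 65.6, 60.5 and 71.6 in the NVR-labelled libraries. It was lowest in OV-L1-FGGY with DMSO and highest with ML355 (log2 fold change -1.58 with the construct, edgeR adjusted p = 2.32e-08, and 2.70 with ML355, adjusted p = 5.17e-10). SOCS1, an inhibitor of interferon signalling, was at 0.287, 0.421 and 0.252 CPM in OV-L1-FGGY with DMSO and 11.9, 11.1 and 15.6 CPM with ML355 (5.30, adjusted p = 2.81e-09). STAT2 was the gene that fell with ML355 (-0.42, adjusted p = 0.00845) and had risen with the construct (1.17, adjusted p = 3.23e-07). In the NVR-labelled libraries against the control, 3 of the 18 were higher and 3 lower, beside 14.5% and 15.3% of all genes tested. There IRF1 had a value of 0.06 (edgeR adjusted p = 0.75) and SOCS1 of 2.64 (adjusted p = 8.73e-07).

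Of 31 other checkpoint and costimulatory ligands 26 were tested, and 15 were higher and 7 lower with the construct, 9 higher and 9 lower with ML355. For these and the NK cell ligands below, the shares over all genes tested were 32.5% higher and 36.2% lower with the construct. With ML355 they were 21.3% and 23.5%. CD55, which shields cells from complement, was at 36.1, 40.1 and 39.7 CPM in the control, 2816, 2554 and 2550 in OV-L1-FGGY with DMSO, 1508, 1320 and 1166 with ML355, and 82.6, 90.6 and 79.0 in the NVR-labelled libraries. It was 68.3-fold higher with the construct (log2 fold change 6.09, edgeR adjusted p = 1.49e-14) and lower with ML355 (-0.99, adjusted p = 5.2e-06). TNFRSF14 (HVEM), the ligand of BTLA, had 13 counts over the 3 control libraries and 1032 over those of vehicle-treated OV-L1-FGGY (6.69, adjusted p = 4.74e-12), against 2 counts in the NVR-labelled libraries. CD24, a ligand of Siglec-10, fell with ML355 from 372 to 107 CPM (-1.80, adjusted p = 1.63e-09). BTN2A1, a butyrophilin seen by γδ T cells, rose with ML355 from 29.5 to 75.0 CPM (1.34, adjusted p = 6.09e-08). Of 12 other NK cell ligands 9 were tested, and 4 were higher and 2 lower with the construct, 2 higher and 5 lower with ML355. NCR3LG1 (B7-H6), the ligand of NKp30, was at 0.673, 1.60 and 2.72 CPM in the control, 46.5, 36.2 and 52.0 in OV-L1-FGGY with DMSO, 24.8, 27.4 and 25.1 with ML355, and 0.400, 0.481 and 0.713 in the NVR-labelled libraries. It rose with the construct (4.73, adjusted p = 3.88e-10) and fell with ML355 (-0.80, adjusted p = 0.00796), whereas RAET1L, a relative of ULBP2, had 178 counts over the libraries of OV-L1-FGGY with DMSO and 1422 over those with ML355 (2.94, adjusted p = 1.85e-07). CADM1, the ligand of CRTAM, fell with the construct (-2.60, adjusted p = 1.45e-10) and with ML355 (-1.19, adjusted p = 1.22e-05).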

How the data were processed

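Total RNA of 12 libraries of the H520 line was analysed in 4 groups of 3, which follow the labels. Reads had been aligned by the authors to the hg38 build (STAR 2.5.3a) and assigned to genes (HTSeq 0.11.2), tools named in the submitters' processing notes, and the deposited values are raw counts for each Ensembl gene. The annotation release, the strand setting and the handling of multi-mapped reads are not given in the sources used here, and the labels name a TruSeq kit where the methods name NEB. Of 58302 identifiers, 57532 were matched to GENCODE 44 for symbols and positions. The 34 genes, the companion lists and the markers were chosen with earlier results of these data known. All 4 groups were fitted together by edgeR 4.0.16 in R 4.3.3 (filterByExpr, TMM scaling and a robust quasi-likelihood test, with calls at a Benjamini-Hochberg adjusted p below 0.01 over 17849 genes), and the script was tested on simulated data. Standard errors are the size of the log2 fold change over the square root of the F statistic, and CPM are TMM-scaled. With total counts of 16242082 to 27004768, folds against groups at or under 3 counts per library are given as bounds or as ratios of summed counts with exact 95% counting intervals, which cover counting error only. Genes named outside the 34 are at most 2 per companion list and comparison, those called with the smallest adjusted p and a mean of at least 1 CPM, together with markers and FGGY. The alternatives comprised limma 3.58.1 (voom), DESeq2 1.42.0, other scalings, filters and thresholds, a fit of 2 groups, the replicate number as a block, each library left out and, added after seeing the data, fits without the NVR-labelled libraries and the same alternatives for the difference between the inhibitor labels. Promoter windows came from RefSeq (GRCh38.p14). Python 3.11.15 with pandas 2.3.3 and matplotlib 3.10.9 served for tables and figures.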

Additional observations from a re-analysis of the deposited data

Results flagged for a closer look

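For 10 of the 30 genes tested, the change in the NVR-labelled libraries against the control differed from the change with ML355 against vehicle-treated OV-L1-FGGY, by edgeR's test of the difference itself, a share near the 34.1% of all genes tested that passed it. In the endosomal class II pathway the differences were 3.32 for HLA-DMA, 3.996 for HLA-DMB and 1.77 for CTSS on the log2 scale, where positive values are higher on the side of the NVR-labelled libraries. Among checkpoint ligands the difference was 2.90 for LGALS9. In peptide loading the differences were -1.02 for TAP1, -1.01 for ERAP1 and -0.98 for ERAP2. Among NK cell ligands they were -1.56 for MICA, -1.71 for MICB and -2.33 for PVR. The baselines of the inhibitor labels differ in FGGY, so that inhibitor and construct cannot be told apart in these differences.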

How the results depend on the processing

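No result changed direction across a call under any alternative run. The counts of genes called that moved by over 1.5 times were these. With at least 10 counts required in every library, the genes lower with the construct and those lower with ML355 each went from 4 to 2, since fewer genes were tested. When a log2 fold change of 1 or more in size was also required, those higher with ML355 went from 10 to 6, and those higher and lower in the NVR-labelled libraries against the control from 9 to 4 and from 6 to 2. At an adjusted p under 0.05 the 9 became 14, and in a fit of only the 2 groups the 6 became 2 (the cause was not tested). With each library left out, the genes higher and lower ranged from 19 to 20 and 3 to 4 with the construct, 8 to 10 and 3 to 4 with ML355, 5 to 6 and 15 to 17 in the NVR-labelled libraries against vehicle-treated OV-L1-FGGY, and 7 to 10 and 1 to 7 against the control, and those that differed between the inhibitor labels from 8 to 11. The count of 6 fell to 2 without replicate 1 or 3 of the NVR-labelled libraries, to 3 without control replicate 2 and to 1 without control replicate 3. Without the NVR-labelled libraries, 19 were higher and 3 lower with the construct, and 10 and 3 with ML355. With the replicate block, the counts in the order above were 19, 4, 10, 4, 5, 18, 8 and 5, and 10 genes differed between the inhibitor labels. Same-numbered libraries did not deviate together in all pairs (correlations from -0.35 to 0.17), so that the numbers were not taken to pair them. Scaling by library size alone moved the median log2 fold change of all genes from 0.00 to -0.13 with ML355 and from 0.00 to -0.15 in the NVR-labelled libraries against the control, and the share of called genes that were higher from 47.6% to 39.3% and from 48.8% to 36.3%. Over all values recomputed under the alternatives, 58 newly passed and 123 no longer passed, and 16 calls were lost when 1 library was left out. Depth limits CD74, CIITA, HLA-DRB1, HLA-DMB, VTCN1 and PDCD1LG2, which had few counts.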

Other observations

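Genes of the MHC region around the 34 were described for comparison. The 15 of them that lie in it span chromosome 6 from 29722775 to 33314284 (GRCh38), and 119 of the 289 other genes there were tested. With the construct 38 of these 119 were higher and 36 lower, beside 32.5% and 36.2% of all genes tested. With ML355 41 were higher and 18 lower, beside 21.3% and 23.5%. Their medians were -0.10 and 0.35 on the log2 scale. In the NVR-labelled libraries against the control, 26 were higher and 16 lower, beside 14.5% and 15.3% of all genes tested.

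Of 14 genes whose proteins act on checkpoint ligands after transcription, 3 were higher and 4 lower with the construct, beside 32.5% and 36.2% of all genes tested. With ML355, 4 were higher and 2 lower, beside 21.3% and 23.5%. MMP14, a protease that sheds MICA from the cell surface, was at 4.91 CPM in the control and 66.5 CPM in OV-L1-FGGY with DMSO (log2 fold change 3.76, edgeR adjusted p = 5.92e-12), and its value with ML355 was -0.14 (adjusted p = 0.43). STUB1, a ubiquitin ligase of PD-L1, was lower with the construct (-1.72, adjusted p = 1.43e-07) and higher with ML355 (0.73, adjusted p = 0.00188). QPCTL, the enzyme that modifies CD47 for binding by SIRPα, was higher with ML355 (0.79, adjusted p = 0.00014) and in the NVR-labelled libraries against the control (1.07, adjusted p = 1.89e-05). CMTM3, a relative of the PD-L1 stabiliser CMTM6, fell with the construct (-1.84, adjusted p = 1.39e-08) and with ML355 (-1.08, adjusted p = 3.05e-05).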
